A study of Homo sapiens with 6 samples.

Results

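The genes described here lie on human chromosome 18, on both its arms, and were chosen by name because their transcripts were lower as a block in an earlier look at these same arrays. The list names 59 genes. Of these, 54 are measured by 157 probe sets that the platform annotation assigns to exactly 1 gene, out of 18338 such genes in all. ENOSF1, NDC80P1, RBBP8, LAMA3 and RNF125 had no such probe set and are not analysed here. A further 220 measured genes lie on the same chromosome and are used for comparison. The choice was made on the contrast between the lines, so the size and the calls of the members in that contrast are given as a description, without a test.

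The arrays are Affymetrix HG-U133 Plus 2.0 arrays of total RNA from Tet-On HEK293 cells, an established human embryonic kidney line in which doxycycline switches an inserted gene on. There were 3 arrays of a stable line carrying a myocilin expression vector and 3 of a stable line carrying the control vector, and both lines were grown under hygromycin B and G418. The protocol gives doxycycline for 48 h to cells of both kinds, but not the dose behind each array, and the drug is named in a description of the myocilin samples only. Each vector is represented by 1 stable line, and nothing in the labels says that its arrays came from separate cultures. An effect of myocilin therefore cannot be told apart from any other difference between the lines, and every spread below is between these arrays, which may be technical. The study asked how myocilin bears on proliferation, survival and the ERK pathway.

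The genes of 1 chromosome have no common task. They share their physical molecule, and so its number of copies in a cell, and transcript levels of many genes follow that number, while others are buffered by feedback. HEK293 is an aneuploid line, and its chromosome make-up differs between sublines. DNA copy number was not measured on these arrays. In bulk RNA, fewer cells that express a gene and less RNA of it per cell cannot be told apart.

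The deposited values are on a log scale, read here as log2, and the values of a probe set look centred on a level that no source names. A value is therefore a position relative to that level: it can be compared between arrays for 1 gene, but not between genes, and it cannot show whether a gene was detected or whether the markers of the line were present. Every array had a median of 0, with standard deviations of 0.169 to 0.197 over probe sets. Correlations over probe sets were 0.513 to 0.608 between myocilin arrays, 0.409 to 0.464 between control arrays and -0.245 to -0.0052 between the lines. Centring can push correlations between groups below 0, so their sign does not show opposite expression profiles. MYOC, the inserted gene, read 0.21, 0.20 and 0.24 on the myocilin arrays and -6.71, -8.32 and -8.29 on the control arrays.

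Most chromosome 18 genes in the list have a CpG-rich start, the kind of promoter found at broadly used genes. RefSeq promoter windows of the GRCh38.p14 build, running from 250 bases before to 50 after a start, were matched by gene identifier to 50 of the 54 members. For a gene with several listed starts, the one with the most CG dinucleotides was taken. A window was called CpG-rich at a GC content of at least 50% with CG observed over expected of at least 0.6. This held for 48 of 50 members (96%), for 133 of 186 other chromosome 18 genes (71.5%) and for 10132 of 14163 genes on those other chromosomes for which windows were used (71.5%). PTPN2 and SETBP1 were the members with a CpG-poor window. The windows below show the 150 bases before the start, 5′ to 3′ on the gene's strand and in lower case, with each CG in capitals.

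The first 3 windows belong to the members with the lowest log2 differences among those with a window, and hold between 14 and 23 CG:
LPIN2, chr18:3013145-3013294, minus strand: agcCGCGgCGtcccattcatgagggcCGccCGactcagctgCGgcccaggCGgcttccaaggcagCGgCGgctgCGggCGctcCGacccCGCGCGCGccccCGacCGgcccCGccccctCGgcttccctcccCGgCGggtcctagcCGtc
TCF4, chr18:55589812-55589961, minus strand: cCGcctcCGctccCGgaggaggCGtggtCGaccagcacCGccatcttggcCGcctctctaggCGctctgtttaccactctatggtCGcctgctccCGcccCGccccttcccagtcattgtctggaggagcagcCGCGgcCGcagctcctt
GNAL, chr18:11751935-11752084, plus strand: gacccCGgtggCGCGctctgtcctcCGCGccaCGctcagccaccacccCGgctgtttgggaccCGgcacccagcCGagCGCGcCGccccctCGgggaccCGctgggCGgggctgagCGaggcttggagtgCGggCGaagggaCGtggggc

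The next 3 belong to the members with the highest differences, which stood within 0.1 log2 units of 0, and hold between 5 and 24 CG:
MBP, chr18:77132784-77132933, minus strand: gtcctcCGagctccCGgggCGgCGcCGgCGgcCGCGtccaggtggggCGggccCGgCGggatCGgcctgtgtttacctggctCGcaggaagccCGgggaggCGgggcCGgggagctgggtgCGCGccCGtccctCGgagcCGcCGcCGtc
DCC, chr18:52340047-52340196, plus strand: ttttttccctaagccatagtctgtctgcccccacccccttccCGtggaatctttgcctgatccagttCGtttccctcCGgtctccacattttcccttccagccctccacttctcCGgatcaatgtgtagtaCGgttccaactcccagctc
CTDP1, chr18:79679653-79679802, plus strand: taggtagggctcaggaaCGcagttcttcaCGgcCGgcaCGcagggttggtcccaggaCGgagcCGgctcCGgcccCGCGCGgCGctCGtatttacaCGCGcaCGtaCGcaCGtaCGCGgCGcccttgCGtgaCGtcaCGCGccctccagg

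Some genes outside the list had a CpG-rich window and a difference near 0, but none is shown. The last 2 windows, picked as CpG-poor, are of HRH4, a histamine receptor gene, and MEP1B, encoding a subunit of the metalloprotease meprin. Of the CpG-poor windows of protein-coding chromosome 18 genes outside the list, these 2 belong to the genes with differences closest to 0. They hold 0 and 1 CG:
HRH4, chr18:24460487-24460636, plus strand: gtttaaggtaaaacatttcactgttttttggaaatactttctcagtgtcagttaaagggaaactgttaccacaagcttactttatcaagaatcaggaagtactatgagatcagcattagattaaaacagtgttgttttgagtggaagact
MEP1B, chr18:32189889-32190038, plus strand: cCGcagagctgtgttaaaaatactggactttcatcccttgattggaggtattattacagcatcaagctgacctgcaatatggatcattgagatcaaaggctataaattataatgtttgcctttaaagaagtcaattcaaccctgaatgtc
MBP and CTDP1 show that a start dense in CG also stood before members whose levels hardly differed.

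Across the 54 members, the median log2 difference (myocilin minus control) was -0.36, which is 78.1% of the control level. The quartiles of the members were -0.45 and -0.20, and the extremes were -0.69 and 0.050. The median over all genes was 0.018. Of the members, 53 were below 0 (44.7% of all genes were). In the limma fit across all genes, 40 members were lower past an adjusted p of 0.05 and 0 were higher, where 7.35% of all genes were called lower and 8.28% higher. For 48 members every myocilin array lay below every control array, against 16% of all genes. These counts restate the choice of the list. With each array left out in turn, 31 of the 40 calls were kept in every fit, and those of YES1, MYL12A, MYL12B, GNAL, SEH1L, SMAD4, MALT1, ZNF236 and ADNP2 were lost at least once.

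The members stood low on each myocilin array and high on each control array. Their median value was -0.10, -0.11 and -0.17 on the myocilin arrays, against 0.14, 0.19 and 0.19 on the control arrays. The 2 sets of medians did not overlap, and myocilin array 3 was the lowest. Without it the members' median difference was -0.31. The median standard deviation between replicates was 0.063 over members and 0.083 over all genes. Among members it ran from 0.022 for NPC1 to 0.24 for GNAL. The choice of the members on this contrast and the number of probe sets averaged per gene may bear on this spread, and neither was tested.

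**Figure D1:**
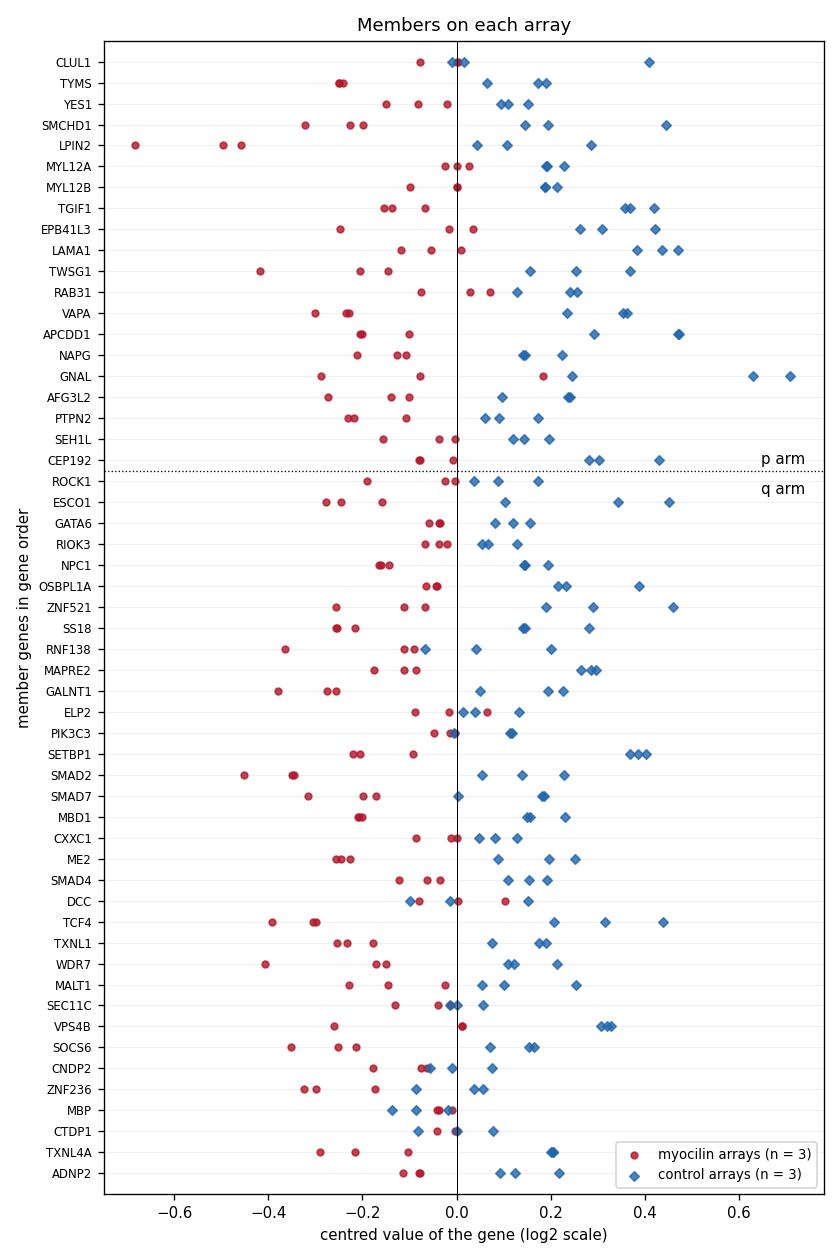
Centred value (log2 scale, x axis) of each of the 54 members (rows, in gene order from the tip of the p arm at the top) on the 3 myocilin arrays (circles) and the 3 control arrays (diamonds). In 48 rows all circles lie left of all diamonds; the rows where they mix are CLUL1, ELP2, PIK3C3, DCC, MBP and CTDP1.

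The members are taken by role below, and the counts that passed in each role restate the choice of low members. Over the whole list 40 of 54 passed (74.1%), where 7.35% of all genes were called lower. All measured members of the TGF-beta and BMP pathway were lower. In this pathway, receptors phosphorylate receptor SMADs, which join SMAD4 and enter the nucleus. SMAD2, a receptor SMAD of the TGF-beta and activin branch, read -0.35, -0.34 and -0.45 on the myocilin arrays and 0.053, 0.23 and 0.14 on the control arrays. The groups did not overlap, and SMAD2 differed by -0.52 log2 units (SE 0.065).

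SMAD4, the shared partner of receptor SMADs, read -0.12, -0.036 and -0.062 on the myocilin arrays and 0.11, 0.15 and 0.19 on the control arrays. It had the smallest difference of the 5, at -0.23 (SE 0.056). Its 5 probe sets ran from -0.47 to 0.029, and 1 of them was past the threshold. SMAD7, an inhibitory SMAD that the pathway itself induces, read -0.32, -0.20 and -0.17 on the myocilin arrays and 0.19, 0.18 and 0.0029 on the control arrays, a difference of -0.35. TGIF1, a repressor that acts with SMADs, and TWSG1, an extracellular modulator of BMP ligands, differed by -0.50 and -0.52. TGIF1's 3 probe sets were spread from -1.06 to -0.13, all below 0.

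Of the 5 other DNA-binding transcription factors, 4 passed the threshold. TCF4, an E-protein of neural and immune development, read -0.31, -0.30 and -0.39 on the myocilin arrays and 0.21, 0.44 and 0.32 on the control arrays. It had the second lowest difference of all members, -0.65 (SE 0.070), and each of its 8 probe sets was past the threshold, between -0.71 and -0.58. GATA6, a factor of endoderm and heart development, read -0.038, -0.059 and -0.036 on the myocilin arrays and 0.16, 0.082 and 0.12 on the control arrays. Its groups did not overlap, but the difference of -0.16 did not pass the threshold, and its 2 probe sets disagreed, at -0.48 and 0.15. The zinc finger genes ZNF521 and ZNF236 and the homeobox gene ADNP2 differed by -0.46, -0.27 and -0.23.

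Genes of chromatin, DNA repair and chromosome segregation had a median of -0.43, and 6 of 7 passed. SETBP1, which encodes a SET-binding nuclear protein, read -0.22, -0.094 and -0.20 on the myocilin arrays and 0.38, 0.40 and 0.37 on the control arrays. Its difference of -0.56 (SE 0.058) was the lowest of the group, and both probe sets gave nearly the same value, -0.57 and -0.55. ESCO1, a cohesin acetyltransferase, and SMCHD1, a chromatin protein of X inactivation, differed by -0.53 and -0.51. SS18, a subunit of the BAF remodelling complex, differed by -0.43, CEP192, a scaffold of the centrosome, by -0.39, and MBD1, which binds methylated CpG, by -0.38. CXXC1, which binds unmethylated CpG within the SETD1 histone methyltransferase complexes, read 0, -0.086 and -0.013 on the myocilin arrays and 0.13, 0.081 and 0.047 on the control arrays. The groups stood apart, yet the difference of -0.12 did not pass.

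Members that serve RNA polymerase II, splicing, tRNA modification and the nuclear pore lay between -0.41 and -0.013, and 2 of 4 passed. TXNL4A, a small protein of the U5 snRNP of the spliceosome, read -0.22, -0.29 and -0.10 on the myocilin arrays and 0.20, 0.21 and 0.21 on the control arrays, a difference of -0.41 (SE 0.063). CTDP1, the phosphatase of the polymerase's C-terminal domain, read 0, -0.042 and -0.0031 on the myocilin arrays and -0.082, 0 and 0.077 on the control arrays. These values overlap fully, and the difference was -0.013. SEH1L, a nucleoporin, differed by -0.22 and passed, whereas ELP2, a subunit of the Elongator complex, differed by -0.074 with overlapping groups.

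Of 8 signalling genes, 6 passed. GNAL, a stimulatory G protein subunit, had the lowest difference, -0.59, and the largest spread of any member. It read -0.29, 0.18 and -0.078 on the myocilin arrays and 0.63, 0.24 and 0.71 on the control arrays, so its highest myocilin array came close to its lowest control array. Its 4 probe sets ran from -0.97 to -0.30, and 1 of them, at -0.33, was past the threshold. RIOK3, an atypical kinase, read -0.066, -0.021 and -0.038 on the myocilin arrays and 0.053, 0.13 and 0.068 on the control arrays. It had the highest difference of the group, -0.12, and did not pass. APCDD1, an inhibitor of Wnt signalling at the cell surface, differed by -0.58, and its 2 probe sets gave -0.94 and -0.22. SOCS6, an adaptor of the cytokine signalling suppressor family, differed by -0.40, the tyrosine phosphatase gene PTPN2 by -0.29, the paracaspase gene MALT1 by -0.27 and YES1, a SRC family kinase gene, by -0.20. RNF138, a ubiquitin ligase gene, had a difference of -0.25 that did not pass.

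Among cytoskeletal genes 4 of 5 passed. EPB41L3, which links membrane proteins to spectrin and actin, read 0.034, -0.016 and -0.25 on the myocilin arrays and 0.31, 0.42 and 0.26 on the control arrays. Its difference, -0.41, was as low as that of MAPRE2, a protein of growing microtubule ends. ROCK1, a kinase that drives myosin contraction, read -0.0037, -0.025 and -0.19 on the myocilin arrays and 0.036, 0.17 and 0.088 on the control arrays, and its difference of -0.17 did not pass.

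MYL12A and MYL12B are neighbouring genes that encode nearly identical regulatory light chains of non-muscle myosin, so their probes may share signal. MYL12A read 0, 0.026 and -0.024 on the myocilin arrays and 0.19, 0.19 and 0.23 on the control arrays. MYL12B read -0.099, 0 and -0.000027 on the myocilin arrays and 0.19, 0.19 and 0.21 on the control arrays. The 2 genes differed by -0.20 and -0.23, and a probe set that the annotation gives to both differed by -0.23. These 3 values lie within 1 standard error of each other. Each of the 2 genes rests on 1 probe set. Fitted singly over all probe sets, none of the 3 probe sets passed the threshold.

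The 3 measured genes of matrix, axon guidance and myelin did not move alike. LAMA1, a laminin chain of basement membranes, read -0.12, -0.055 and 0.0094 on the myocilin arrays and 0.38, 0.44 and 0.47 on the control arrays, a difference of -0.48 (SE 0.059). DCC, the netrin receptor of growing axons, read 0.0026, -0.081 and 0.10 on the myocilin arrays and -0.013, -0.100 and 0.15 on the control arrays. Its groups overlapped and its difference was -0.0042. MBP, known for the myelin sheath, read -0.038, -0.041 and -0.0099 on the myocilin arrays and -0.14, -0.018 and -0.086 on the control arrays. It was the only member above 0, at 0.050, and none of its 8 probe sets was called.

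The 11 genes of membrane traffic, lipids and secretion had a median of -0.33, and 8 passed. LPIN2, a phosphatidate phosphatase of lipid synthesis, read -0.50, -0.46 and -0.68 on the myocilin arrays and 0.11, 0.29 and 0.043 on the control arrays. This was the lowest member, at -0.69 (SE 0.084), a 1.61-fold lower level at face value. SEC11C, a catalytic subunit of signal peptidase, read -0.040, -0.13 and -0.015 on the myocilin arrays and 0.055, -0.014 and 0 on the control arrays. The groups met without crossing, and its difference of -0.075 was the highest of the group.

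VAPA, an ER protein that tethers other membranes, differed by -0.57, but its 5 probe sets ranged from -1.16 to -0.15. It was the only member with probe sets over 1 log2 unit apart. GALNT1, which starts O-glycosylation, differed by -0.46, VPS4B, the ATPase that takes apart ESCRT-III, by -0.40, and WDR7, a partner of the V-ATPase, by -0.39. OSBPL1A, an oxysterol-binding relative, differed by -0.33, and NAPG, which works with NSF in membrane fusion, and NPC1, the lysosomal cholesterol transporter, by -0.32 each. RAB31 and PIK3C3, a small GTPase and the class III lipid kinase of endosomes and autophagy, differed by -0.20 and -0.097 and did not pass.

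In the remaining group of metabolism and mitochondria 4 of 6 passed. ME2, the mitochondrial malic enzyme, read -0.26, -0.23 and -0.25 on the myocilin arrays and 0.087, 0.20 and 0.25 on the control arrays, a difference of -0.42 (SE 0.061). TYMS, which makes thymidylate for DNA synthesis, read -0.25, -0.25 and -0.24 on the myocilin arrays and 0.066, 0.19 and 0.17 on the control arrays. Its difference was -0.39, with probe sets from -0.62 to -0.10. CNDP2, a cytosolic dipeptidase, read -0.075, -0.063 and -0.18 on the myocilin arrays and -0.057, -0.0090 and 0.075 on the control arrays, and its difference of -0.11 did not pass. TXNL1, a thioredoxin-like protein, and AFG3L2, a subunit of the mitochondrial m-AAA protease, differed by -0.37 and -0.36. CLUL1, a relative of clusterin, was at -0.16, with 1 control array at 0.41 far above the other values.

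**Figure D2:**
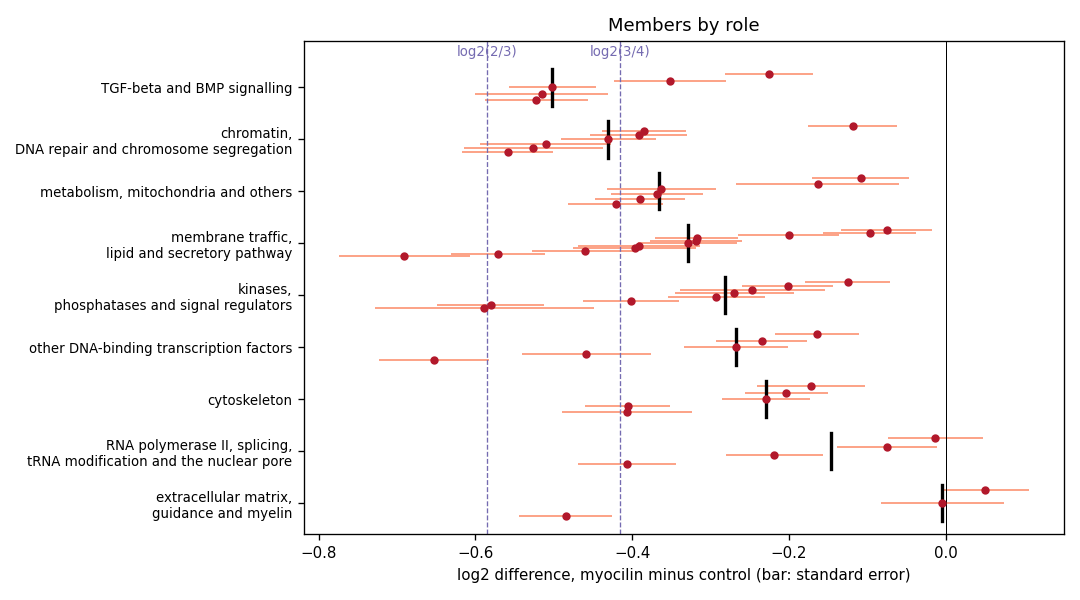
Log2 difference (x axis, myocilin minus control) of the 54 members, with its standard error, by role; black ticks are group medians and dashed lines are log2 of 2/3 and 3/4. The medians run from -0.50 for TGF-beta and BMP signalling to -0.0042 for matrix, guidance and myelin.

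Probe sets of 1 gene mostly went the same way. Of 157 member probe sets, 142 were below 0, 86 were called lower and 0 higher, where 5.56% of all probe sets were called lower and 5.46% higher. Among the 44 members with more than 1 probe set, 34 had all of them below 0. As 0 probe sets were called higher, calls in both directions could not occur. The choice of low members favours these counts. Over all genes 44.7% were below 0.

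Both arms of the chromosome were lower. The widest gap between measured genes, between ANKRD30B and ROCK1, was taken as the border of the arms. On the p arm all 20 members were below 0, 18 passed, and the median was -0.39, or 76.3% of the control level. On the q arm 33 of 34 were below 0, 22 passed, and the median was -0.32, or 79.9%. The median value of the p arm members was -0.10, -0.10 and -0.18 on the myocilin arrays and 0.19, 0.27 and 0.23 on the control arrays. For the q arm members it was -0.11, -0.11 and -0.17 on the myocilin arrays and 0.11, 0.17 and 0.15 on the control arrays. On both arms every myocilin median lay below every control median, and the difference between the arms was not tested. The members were chosen as low, so their counts on each arm restate that choice. Over all measured genes of an arm, members included, the median was -0.235 on the p arm and -0.177 on the q arm. Of these genes 59.7% and 44.1% were called lower, against 7.35% of all genes.

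The other 220 genes of the chromosome, which the list does not hold, had a median difference of -0.16. Of them, 92 (41.8%) were called lower, against 7.35% of all genes, and 4 (1.82%) higher, against 8.28%. These genes lay nearer to 0 than the members, an order that the choice of low members favours, and other reasons for it were not tested. Their medians were -0.19 over the 52 on the p arm and -0.14 over the 168 on the q arm. On the myocilin arrays their median value was -0.056, -0.069 and -0.063, against 0.076, 0.074 and 0.082 on the control arrays. Genes on other chromosomes had medians between 0 and 0.013 on the myocilin arrays and between -0.00086 and 0 on the control arrays.

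The lowest of these other genes was ZNF532, a zinc finger gene. It read -0.23, -0.17 and -0.21 on the myocilin arrays and 0.88, 1.21 and 0.93 on the control arrays, a difference of -1.21 (SE 0.086), below that of any member. CCDC68, the antisense RNA gene ZNF407-AS1, the tRNA processing gene ELAC1 and IMPACT, a regulator of translation, followed at -0.85, -0.84, -0.83 and -0.77. EMILIN2, an elastic fibre glycoprotein gene, stood highest, at 0.27, 0.46 and 0.50 on the myocilin arrays and -0.12, -0.066 and -0.0050 on the control arrays. This gene lies on the p arm between its measured neighbours SMCHD1 and LPIN2, members at -0.51 and -0.69. TTR was next at 0.38 but did not pass, and the developmental factor genes SALL3 and RAX and the adaptor gene DOK6 were at 0.38, 0.28 and 0.31 and passed.

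The other chromosome 18 genes were also divided by their type of start. Those with a CpG-rich window had a median of -0.28, and 73 of 133 were called lower. Those with a CpG-poor window had a median of -0.038, and 5 of 53 were called lower. On the other chromosomes, leaving out chromosome 8, for which no windows were used here, the medians were 0.010 for CpG-rich and 0.024 for CpG-poor starts, and 8.56% and 3.99% were called lower. The division by CpG content was chosen after the values were seen and was not tested. With the first-listed start and the CG ratio alone, the chromosome 18 medians were -0.28 over 123 genes and -0.042 over 63. The centred values do not tell which of these genes were above background, so the part of undetected genes was not tested.

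In gene order, measured genes were taken in 11 consecutive blocks of 24 or 25. In the first 8 blocks, from USP14 to ZNF532, block medians ran from -0.37 to -0.16. In the last 3, from SEC11C to PARD6G, towards the end of the q arm, they were -0.053, -0.089 and -0.035. Among genes with CpG-rich starts, which numbered 15 to 16 per block there, the medians of the last 3 blocks were -0.27, -0.19 and -0.078, where the first 8 ranged from -0.39 to -0.20. The 9 members in these last blocks included VPS4B, SOCS6 and TXNL4A at -0.40, -0.40 and -0.41 as well as CTDP1 and MBP near 0, so low and unshifted genes stood side by side. With under 20 genes, the CpG-rich medians of single blocks are imprecise.

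**Figure D3:**
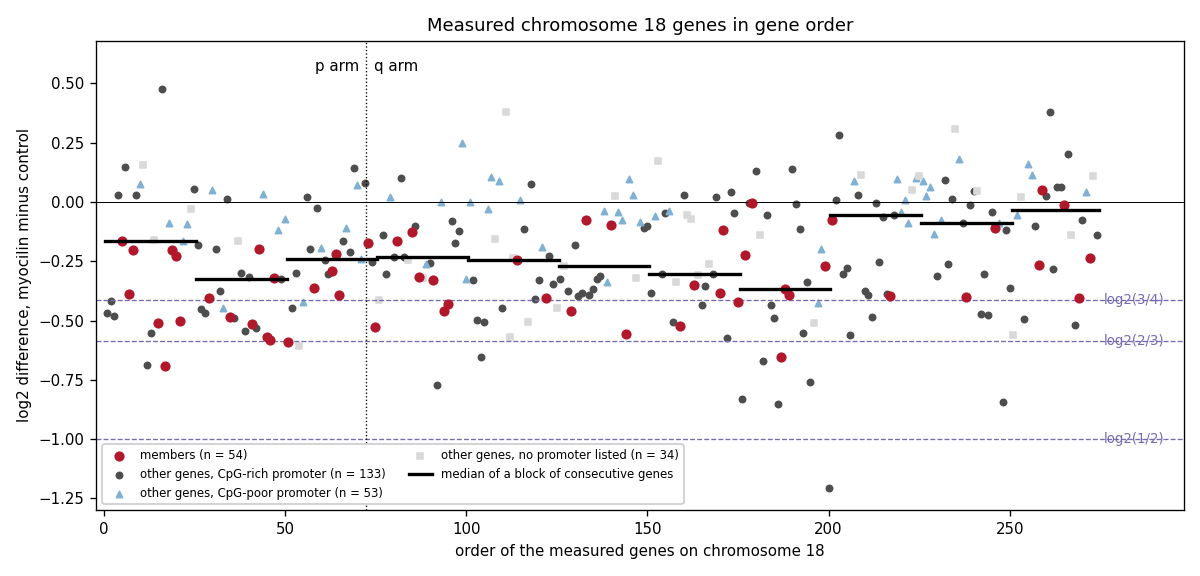
Log2 difference (y axis, myocilin minus control) of the 274 measured chromosome 18 genes in gene order (x axis), with members as large circles, other genes by the type of their promoter window, and black bars for block medians. Dashed lines are log2 of 3/4, 2/3 and 1/2; block medians lie between -0.37 and -0.035, and nearest 0 in the last 3 blocks.

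The size of the shift can be set beside simple ratios of gene copies. Going from 2 copies to 1 would change a level that follows copy number by -1 on the log2 scale. Going from 3 to 2 would give -0.58, from 4 to 3 -0.42 and from 5 to 4 -0.32. None of the 54 members (0) was below -1. Below -0.58 were 3 members, LPIN2, TCF4 and GNAL, below -0.42 there were 16, and below -0.32 there were 29. Within 2 standard errors of each ratio lay 0 members for 1 of 2, 14 for 2 of 3, 29 for 3 of 4 and 29 for 4 of 5. The members' median of -0.36 lies between the last 2, but they were chosen as low. The median was -0.16 over the other 220 genes and -0.21 over all 274, nearer to 0 than each of these ratios. Of the 220, 1 was below -1, 10 were below -0.58, 43 below -0.42 and 69 below -0.32. On other chromosomes 0.17%, 0.71%, 1.94% and 3.35% of genes were below these 4 ratios. Array differences often understate differences in RNA, and the scale of the values is inferred, so the ratio that is closest does not give a copy number.

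Of the 23 chromosomes compared, chromosome 18 had the lowest median, -0.21 over 274 genes, and 48.2% of its genes were called lower. Its genes were looked at because they were low on these arrays, and the 274 include the 54 members. This rank is therefore a description and not separate evidence. The next lowest was chromosome 15 at -0.041. The highest was chromosome 16 at 0.14. Of chromosome 18 genes with a CpG-rich start, the 181 measured had a median of -0.30.

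**Figure D4:**
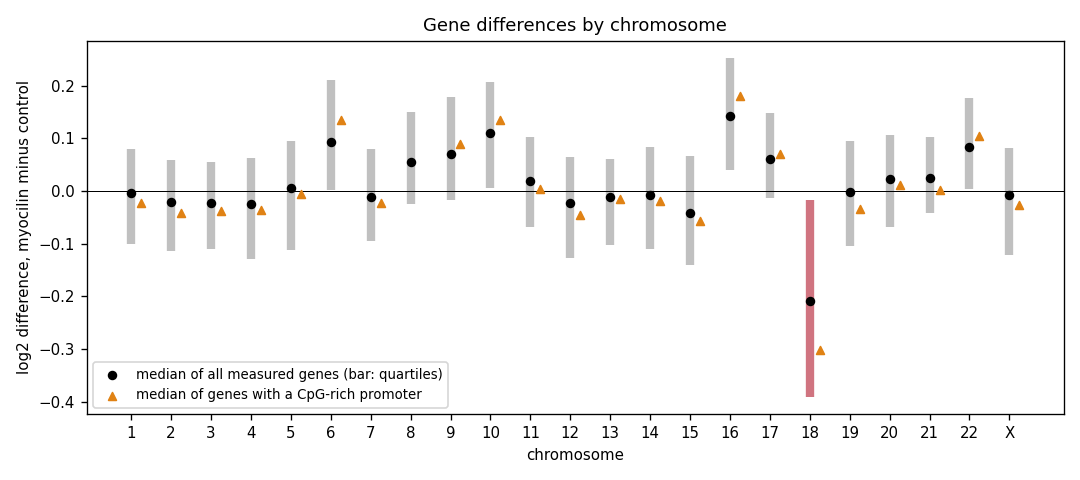
Median log2 difference (y axis, myocilin minus control) of the genes on each chromosome (x axis), with bars for the quartiles and triangles for genes with a CpG-rich window on the chromosomes for which windows were used. Chromosome 18, in red, has a median of -0.21 and an upper quartile of -0.016, below 0.

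Many members work in complexes whose other subunits are encoded elsewhere, and these partners give values that the choice of the list did not use. Of 84 partners listed from knowledge of the complexes, 76 were measured on other chromosomes. In the fit across all genes 5 were called lower and 9 higher, 18.4% of them, where 15.6% of all genes were called, and their median was -0.020. The count of 14 was 6 to 9 when an array was left out and 4 once the types of probe set that may match several transcripts (suffix _x_at or _s_at) were dropped. Dropping them also left some genes without a probe set. Of the 26 called partners and paralogues, 11 kept their call there, 6 lost it and the rest were not measured. In 14 of 15 complexes the median of the measured chromosome 18 members was below that of the partners. Since the members were chosen as low in this contrast, that order is a description and follows in part from the choice.

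The BAF complex had SS18 at -0.43 and 10 partners between -0.18 and 0.049, with 0 called. The U5 snRNP had TXNL4A at -0.41 and 6 partners between -0.092 and 0.26, of which PRPF8 and PRPF6 rose by 0.19 and 0.26 (limma adjusted p = 0.0343 and 0.0460). PRPF8 was not called with trend and robust fitting in limma (adjusted p = 0.0524). SMAD2 and SMAD4 stood at -0.52 and -0.23, while SMAD3 and the receptor genes TGFBR1, TGFBR2 and ACVR1B lay between -0.14 and -0.021.

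The laminin partners split. LAMB2 read -0.37, -0.40 and -0.47 on the myocilin arrays and 0.019, 0.36 and 0.27 on the control arrays, and fell by 0.63 (limma adjusted p = 0.0018), while LAMA1 was at -0.48. LAMB3 rose by 0.22 (limma adjusted p = 0.0473), and LAMB1 and LAMC1 were at -0.16 and -0.15 without passing. Of the myosin partners, MYH9, the heavy chain of non-muscle myosin IIA, read 0.56, 0.43 and 0.49 on the myocilin arrays and 0.079, 0.024 and -0.017 on the control arrays. It rose by 0.47 (SE 0.060, limma adjusted p = 0.0013), while the essential light chain gene MYL6 fell by 0.22 (limma adjusted p = 0.0219), close to its regulatory partners MYL12A and MYL12B. MYH10 differed by -0.066 and did not pass.

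CARD10, a scaffold upstream of MALT1, rose by 0.43 (limma adjusted p = 0.0022), but was at 0.16 with the median of its probe sets (limma adjusted p = 0.176). WDR5 of the SETD1 complexes and the nucleoporin gene NUP43 rose by 0.26 and 0.22, and among ESCRT-III genes IST1 and CHMP1A rose by 0.28 and 0.24 while CHMP2A fell by 0.28. NAPA, the partner of NAPG, fell by 0.23. NBN, which works with RBBP8 in repair of DNA breaks, fell by 0.32, but was at -0.034 when the _x_at and _s_at types were dropped (limma adjusted p = 0.878).

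Paralogues of members on other chromosomes, genes related to them by sequence, had differences centred near 0. Of 61 listed, 59 were measured off chromosome 18, and 5 were called lower and 7 higher (20.3%, where 15.6% of all genes were called), with a median of 0.027. The count of 12 was 5 to 10 when an array was left out, and 7 with the median of probe sets. In 33 of 35 families the member lay below each of its paralogues, the exceptions being DCC and RAB31, an order that the choice of low members favours. LPIN2 at -0.69 had LPIN1 and LPIN3 at 0.12 and 0.24, TCF4 at -0.65 had TCF3 and TCF12 at 0.031 and -0.00064, and ROCK1 at -0.17 had ROCK2 at -0.0015; none of these 5 relatives passed.

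These calls rest on few arrays. Of the 26 called partners and paralogues, 11 stayed called whichever array was left out, namely CARD10, IST1, LAMB2, LYN, MYH9, NBN, RIOK1, RNF114, RNF166, WDR5 and ZNF423. The other 15 lost their call in at least 1 such fit.

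The largest paralogue change was that of ZNF423, a relative of ZNF521, which read 0.25, 0.099 and 0.010 on the myocilin arrays and -0.84, -0.33 and -0.77 on the control arrays. It rose by 0.77 (SE 0.12, limma adjusted p = 0.0041). RIOK1, a relative of RIOK3, rose by 0.50 and VPS4A, the other VPS4 ATPase, by 0.26. RNF166 and RNF114, relatives of RNF125, rose by 0.38 and 0.27, LYN, of the SRC family, by 0.26, and SOCS7 by 0.24. Of the 7 that rose, ZNF423, VPS4A and RNF166 lie on chromosome 16, as do the partners IST1 and CHMP1A. The median of chromosome 16 was 0.14. RIOK1 and NUP43 lie on chromosome 6, with a median of 0.094, and MYH9 and CARD10 on chromosome 22, at 0.084. LAMB3, which also rose, lies on chromosome 1, at -0.0029. The part of these chromosome medians in the rises was not tested. VAPB, the relative of VAPA, fell by 0.21, SMAD1 by 0.21, MBD3 by 0.23, RAB5B by 0.26 and NPC1L1 by 0.28, which was nearer to 0 than the chromosome 18 relative in each case but RAB5B. RAB31, its relative, was at -0.20.

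**Figure D5:**
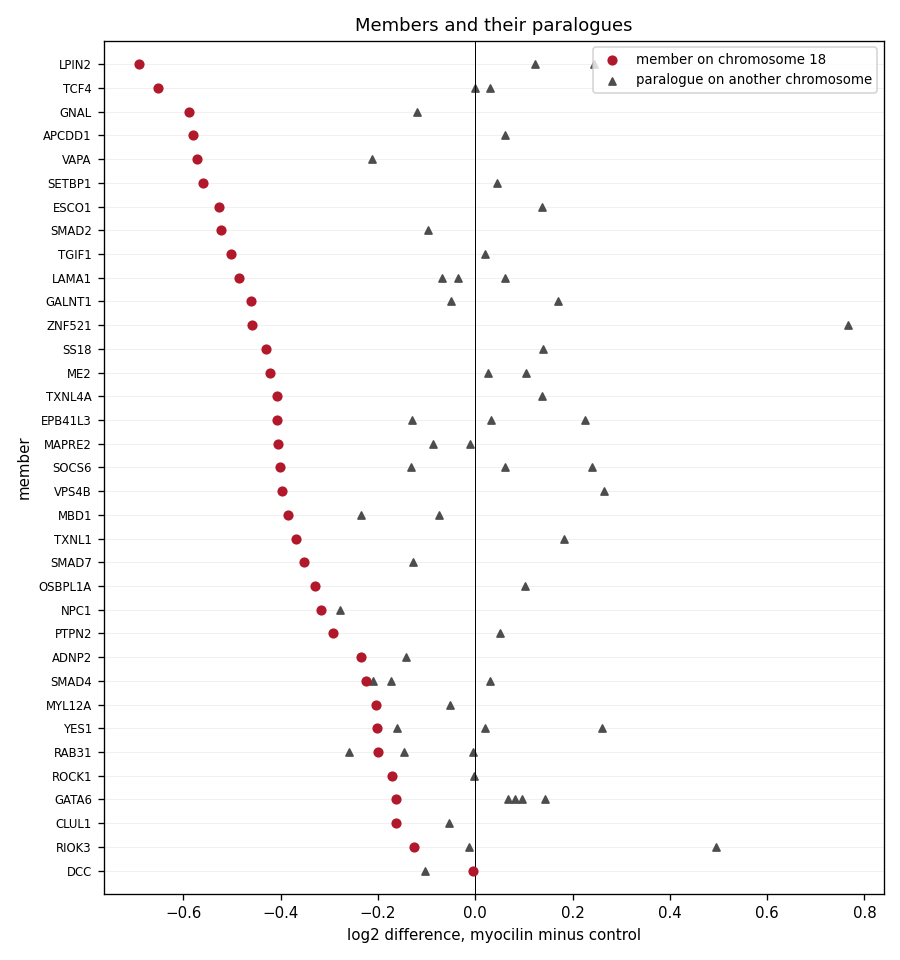
Log2 difference (x axis, myocilin minus control) of 35 members (circles) and of their paralogues on other chromosomes (triangles), 1 family per row, ordered by the member. In 33 rows the circle lies left of every triangle; in the rows of RAB31 and DCC it does not.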

How the data were processed

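Transcripts were measured on 6 arrays, 3 of the myocilin line and 3 of the control line, grouped by source name. The authors' deposited table holds 41751 probe sets with values read as log2, a base inferred from the values. The software and normalisation behind it were not given in the sources used here. The values are centred per probe set, so no detection filter could be used. No column was left unused.

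Of the probe sets, 37460 are listed with 1 gene. Symbols, chromosomes and gene order came from RefSeq (GRCh38.p14) by Entrez identifier, and probe sets of 1 gene were averaged on each array. limma 3.58.1 in R 4.3.3 (lmFit and eBayes, two-sided, Benjamini-Hochberg over 18338 genes) compared myocilin with control, and was tested on simulated data. The number of arrays limits the precision. Members and lists were chosen with earlier results of these data known. Partners and paralogues came from knowledge of the complexes and families. Values per array are given for the lowest and highest member of each role, for TYMS, the MYL12 and SMAD genes, and named genes follow the rule set in the design: the 5 lowest and highest other genes, and called partners and paralogues. SMAD3, TGFBR1, TGFBR2, ACVR1B, HRH4, MEP1B, LAMB1, LAMC1, MYH10 and the paralogues that did not pass were named after their values were seen. Tried alternatives were quantile normalisation, probe sets of the _x_at and _s_at types dropped, the median of probe sets, trend and robust fitting, and each array left out.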

Additional observations from a re-analysis of the deposited data

How the results depend on the processing

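All members' calls and directions held with quantile normalisation and with trend and robust fitting, and 0 of the results changed direction past a threshold. Over all q arm genes the median difference was -0.177 in the fit used above. It was -0.188 with quantile normalisation, -0.164 with the _x_at and _s_at probe sets dropped and -0.161 with the median of probe sets. Over all p arm genes it was -0.235 in the fit used above and -0.208 with those types dropped. With them dropped, 48 members were measured, 46 were below 0 and 30 were called lower. Of the complex partners, some of which then had no probe set, 4 were called. With the median of probe sets, 7 paralogues were called. With each array left out, the members' median was -0.368 to -0.312, the q arm median -0.197 to -0.159, members called lower 32 to 34, other chromosome 18 genes called lower 73 to 87, partners called 6 to 9 and paralogues called 5 to 10. Fewer arrays enter these fits. The cause of the other shifts was not tested. No paired analysis was possible because the running numbers in the labels are shared by no arrays of the 2 lines. Centred values give no signal over background, so dim probe sets could not be set aside. The earlier rule for CpG-rich starts, added after seeing the data, moved neither median by more than the spread between arrays.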
